A study of Mus musculus with 4 samples.

Results

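The 10 genes described here write, copy, erase or feed DNA methylation, or modify chromatin beside it, and were followed in leukemia stem cells (LSCs) sorted from a mouse model of acute myeloid leukemia. They are Dnmt1, Uhrf1, Dnmt3a, Dnmt3b, Tet1, Tet2, Tet3, Idh1, Idh2 and Asxl1, taken by name because their human counterparts are known from leukemia, either mutated or studied as parts of the same machinery. All 10 of the 10 genes were among the 27179 gene IDs of the deposited expression table. RNA had been sequenced from 2 B7-H4-null samples and 2 wild-type samples, and the question is whether RNA levels of these genes depend on B7-H4. All 4 samples were bone marrow cells of C57BL/6 mice gated as YFP+, Mac-1+ and c-Kit+. B7-H4, the product of Vtcn1, is an inhibitory ligand of the B7 family. How the leukemia was started, the age of the mice, whether animals were pooled and whether the replicates are separate animals are not given in the labels. The p-values below therefore rest on sample-to-sample spread alone, and that spread may be technical.

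DNA methylation in mammals is a methyl group on cytosine, mostly where a guanine follows. Dnmt3a and Dnmt3b place it on unmethylated DNA, and Dnmt1, guided by Uhrf1 to freshly copied DNA, restores it after replication. The Tet enzymes oxidise the methyl group and so start its removal, and they need 2-oxoglutarate, which the isocitrate dehydrogenases Idh1 (cytosol) and Idh2 (mitochondria) produce. Mutant IDH enzymes in human leukemia instead make 2-hydroxyglutarate, which inhibits the TET enzymes. Asxl1 is a chromatin protein that acts with the histone H2A deubiquitinase Bap1. In blood stem cells DNMT3A, TET2 and ASXL1 are the genes most often found mutated in clonal growth before human leukemia. The values below are RNA levels and say nothing about mutations in these mice or about methylation itself.

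Levels are given in RPKM, reads scaled to gene length and to the reads of the library, which allows genes of different length to be set side by side. The totals behind this scaling, recovered from the steps between low values, lay between 9419425 and 10814448 reads. In the test across all genes, 12 of 12107 passed (0.0991%), 5 higher (0.0413%) and 7 lower (0.0578%) in B7-H4-null cells (limma, adjusted p under 0.05). Vtcn1 itself had 1 read in each B7-H4-null library and 0 reads in both wild-type libraries, below the floor of 3 reads, so its level checks neither label. The genes of the sort markers were read in every library. Itgam, which encodes Mac-1 together with Itgb2, had 82.9 and 59.9 RPKM in B7-H4-null cells, against 114 and 86.9 RPKM in wild-type cells. Itgb2 had 123.1 and 146.1 RPKM in B7-H4-null cells, against 212.6 and 212.9 RPKM in wild-type cells. Of the 4 listed sort genes (Itgam, Itgb2, Kit and Ptprc), 3 had lower values in both B7-H4-null libraries (28% of all tested genes), and Kit overlapped. Kit, which encodes c-Kit, had 11.02 and 9.37 RPKM in B7-H4-null cells, against 24.0 and 7.19 RPKM in wild-type cells. Markers of T and NK cells were at or near 0 except Nkg7. Of the B cell markers Pax5 was at 0 in every library, but Cd79b and Ighm were read in all of them. Cd79b had 58.7 and 60.7 RPKM in B7-H4-null cells, against 35.4 and 45.5 RPKM in wild-type cells. Ighm had 61.1 and 68.7 RPKM in B7-H4-null cells, against 21.4 and 9.99 RPKM in wild-type cells.

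Over the 4 libraries Idh2 had the highest mean level of the 10 genes, 90.3 RPKM, above that of 91.7% of the tested genes. Dnmt1 and Uhrf1 came next with means of 55.5 and 46.0 RPKM, followed by Asxl1 with 32.5 RPKM and Idh1 with 29.0 RPKM. The median tested gene had a mean of 13.3 RPKM. Tet3, Tet2, Dnmt3a and Dnmt3b lay below it, with means of 9.65, 8.13, 7.48 and 5.96 RPKM. Within each of the 4 libraries Idh2 lay above Dnmt1, Dnmt1 above Uhrf1, Uhrf1 above Asxl1, and Idh1 above Tet3, although ranges over libraries overlapped from Idh2 down to Idh1. Asxl1 and Idh1 changed places between libraries, as did each neighbouring pair from Tet3 down to Dnmt3b. Tet1 stood far apart at a mean of 0.0834 RPKM.

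**Figure D1:**
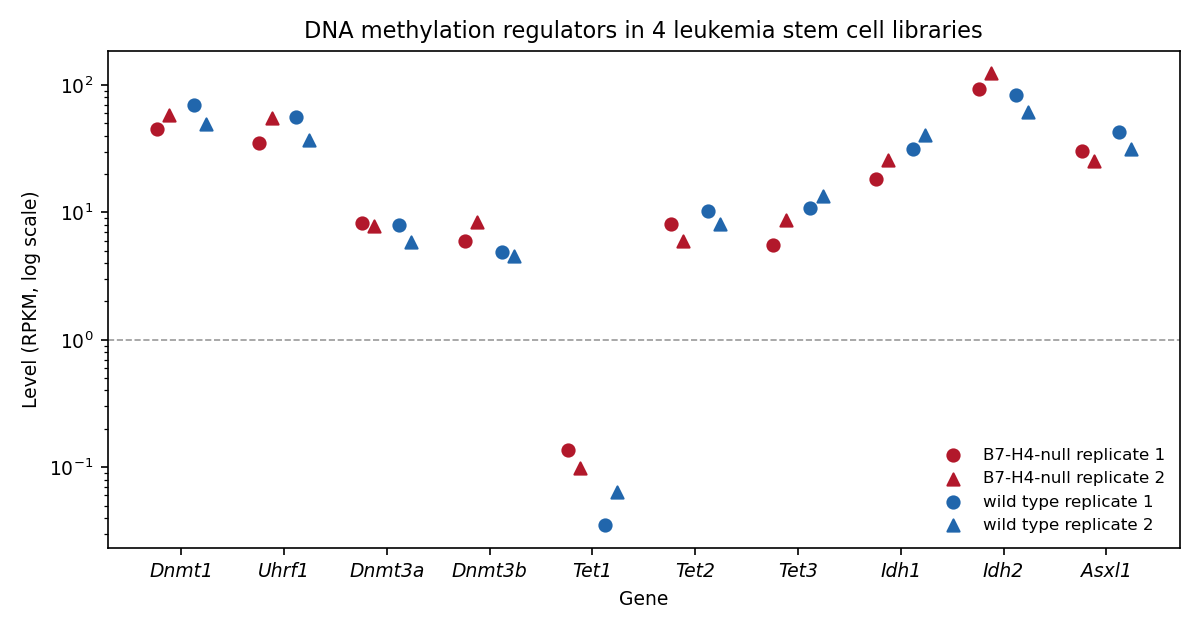
RNA level of each of the 10 genes in RPKM on a log axis, with 1 point per library, B7-H4-null in red and wild type in blue. The dashed line marks 1 RPKM, the minimum for testing, and Tet1 lies below it in all 4 libraries.

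None of the genes passed the genotype test. A gene entered it with at least 1 RPKM in 2 or more libraries, which kept 9 of the 10 and left out Tet1. Of the 9 (background 0.0991%), 0 had an adjusted p under 0.05 with limma on log2(RPKM + 1) or with limma's voom on recovered reads, and the lowest adjusted p was 0.402. Idh1 and Tet3 were the 2 with an unadjusted p under 0.05, both lower, against 12.3% of all tested genes (5.05% higher and 7.2% lower). B7-H4-null and wild-type libraries did not overlap for 5 of the 9, against 44% of all tested genes, a share from which nothing particular to these genes can be read. Idh2 and Dnmt3b were higher in both B7-H4-null libraries (2 of 9, against 16% of tested genes), and Idh1, Tet3 and Asxl1 were lower (3 of 9, against 28%). After median-ratio scaling, which moved the median difference of all genes from −0.09 to 0.01 (log2), Asxl1 overlapped and Dnmt3a no longer did. The median log2 difference of the 9 was −0.21, beside −0.09 over all tested genes.

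**Figure D2:**
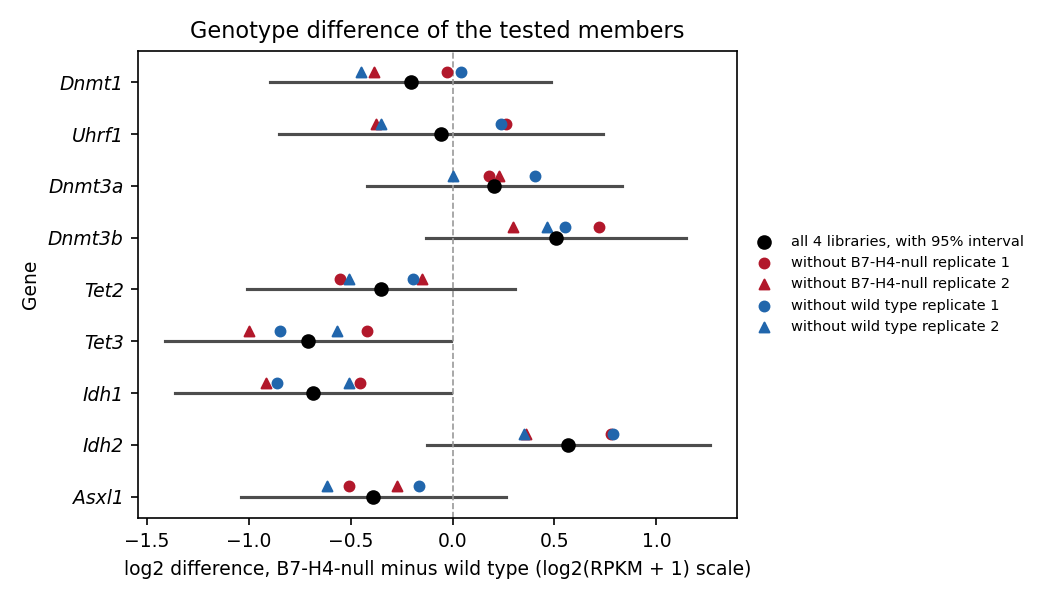
Genotype difference of the 9 tested genes on the log2(RPKM + 1) scale, B7-H4-null minus wild type, with the 95% interval from limma as a bar and the value without each library as a coloured point. Only the intervals of Tet3 and Idh1 end just below 0, before any adjustment, and the points of Uhrf1 and Dnmt1 lie on both sides of 0.

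Dnmt1 is the maintenance methyltransferase (gene ID 13433) and lies on chromosome 9 from 20907206 to 20959888 in GRCm38.p6, the build of all positions given here. It had 44.9 and 57.7 RPKM in B7-H4-null cells, against 69.9 and 49.5 RPKM in wild-type cells. Uhrf1, which binds hemimethylated DNA and brings Dnmt1 to it, has gene ID 18140 and lies on chromosome 17 from 56303337 to 56323486. It had 35.1 and 55.2 RPKM in B7-H4-null cells, against 56.5 and 37.2 RPKM in wild-type cells. For both genes B7-H4-null replicate 2 and wild type replicate 1 were the higher libraries of their groups, and the groups overlapped. The log2 difference was −0.21 ± 0.288 (SE) for Dnmt1 (limma adjusted p = 0.808) and −0.06 ± 0.334 for Uhrf1 (limma adjusted p = 0.961). The interval of the difference ran from −0.85 to 0.74 for Uhrf1, so a change of either sign within it could not be seen at this spread. Uhrf1 turned to 0.04 after median-ratio scaling, so no direction is given for it.

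The spread of Uhrf1 within a genotype was larger than its difference between genotypes. It was 1.57-fold higher in B7-H4-null replicate 2 than in replicate 1, and 1.52-fold higher in wild type replicate 1 than in replicate 2. On the log2(RPKM + 1) scale, 18.9% of tested genes lay farther apart between the B7-H4-null libraries and 18.4% between the wild-type libraries. Reads of Uhrf1 numbered 1208 and 2179 in B7-H4-null cells, against 2092 and 1351 in wild-type cells, so counting error is small beside this spread. The ratio of Uhrf1 to Dnmt1 was steadier, at 0.783 and 0.956 in B7-H4-null cells, against 0.808 and 0.752 in wild-type cells.

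The Mcm genes, which encode the replicative helicase, were high in the same libraries. The list of 24 maintenance and replication genes had a summed level of 1285 and 1572 RPKM in B7-H4-null cells, against 1569 and 1227 RPKM in wild-type cells. Without the 6 Mcm genes the sum was 802 and 840 RPKM in B7-H4-null cells, against 862 and 744 RPKM in wild-type cells. Mcm2 had 60.1 and 101.5 RPKM in B7-H4-null cells, against 102.9 and 60.98 RPKM in wild-type cells. Mcm3 had 87.7 and 139.3 RPKM in B7-H4-null cells, against 134.03 and 94.98 RPKM in wild-type cells. Both were chosen after their values were seen, and all 6 Mcm genes were higher in B7-H4-null replicate 2 than in replicate 1 and in wild type replicate 1 than in replicate 2. Of the other 18 genes of the list, 7 had this pattern and 11 did not. The 7 were Hells, Cdca7, Cdca7l, Lig1, Ccne1, Rrm1 and Tyms. The share of all tested genes with this pattern was not counted, so these counts cannot be read as particular to the list. Those without it included the sliding clamp gene Pcna, the nucleotide supply gene Rrm2 and the mitotic cyclin gene Ccnb1. The part of cell division in the values of Dnmt1 and Uhrf1 was not tested. Pcna had 176.8 and 130.4 RPKM in B7-H4-null cells, against 133.2 and 102.0 RPKM in wild-type cells. Ccnb1 had 6.00 and 10.3 RPKM in B7-H4-null cells, against 10.4 and 15.9 RPKM in wild-type cells. Of the 24 genes 0 passed limma, 0 had an unadjusted p under 0.05 (12.3% of all tested genes) and 0 passed voom. Above 0 lay 13 (41.5% of all tested genes) and below it 11, with a median log2 difference of 0.02. Leaving out replicate 2 of either genotype turned that median negative, to −0.15 for B7-H4-null and −0.16 for wild type.

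**Figure D3:**
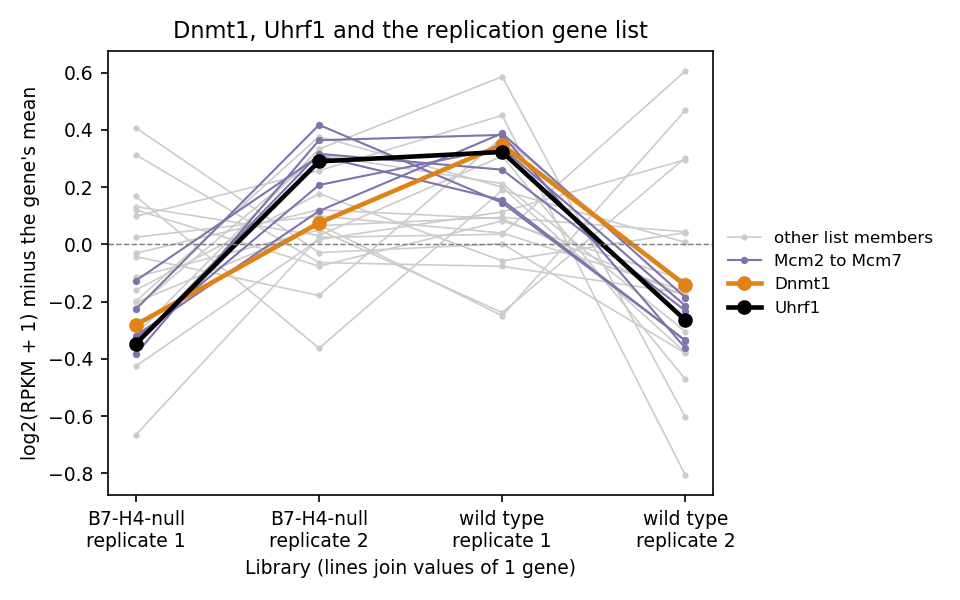
Deviation of log2(RPKM + 1) from each gene's own mean over the 4 libraries, for Dnmt1, Uhrf1, Mcm2 to Mcm7 and the other members of the replication list. Dnmt1, Uhrf1 and the Mcm genes lie above their means in B7-H4-null replicate 2 and wild type replicate 1 and below them in the other libraries, while the other genes of the list are mixed.

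Promoter windows of Dnmt1 and Uhrf1 are shown, 250 bases before to 50 after a transcript start, from RefSeq on GRCm38.p6. The windows were searched on both strands for the letters TTTCCCGC, TTTCGCGC, TTTGCCGC and TTTGGCGC, known as sites of the E2F factors that drive genes of the S phase. The reverse complements of the motifs do not coincide with one another, and matches are in capitals. Each sequence is written 5′ to 3′ on the strand of its gene, Dnmt1 at chr9:20952574-20952873 (minus strand) and Uhrf1 at chr17:56304063-56304362 (plus strand).
Dnmt1: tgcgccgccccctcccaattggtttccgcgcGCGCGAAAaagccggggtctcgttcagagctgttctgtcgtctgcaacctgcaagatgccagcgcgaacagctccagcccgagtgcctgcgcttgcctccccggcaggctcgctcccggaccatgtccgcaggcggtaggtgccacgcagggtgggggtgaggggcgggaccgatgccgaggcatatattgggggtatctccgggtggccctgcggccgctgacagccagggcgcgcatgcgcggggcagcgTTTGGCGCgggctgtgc
Uhrf1: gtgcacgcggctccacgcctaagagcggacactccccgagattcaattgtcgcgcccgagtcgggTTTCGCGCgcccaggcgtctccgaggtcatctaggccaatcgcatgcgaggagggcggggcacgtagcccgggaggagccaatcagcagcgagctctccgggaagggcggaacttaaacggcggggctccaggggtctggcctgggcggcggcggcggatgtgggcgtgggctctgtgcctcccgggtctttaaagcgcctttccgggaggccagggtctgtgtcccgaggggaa

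The Dnmt1 window held 2 matches and the Uhrf1 window 1. Such letters were found in 2.26% of 32851 windows of the same length. All of the motifs contain a C followed by a G (CpG). The Dnmt1 and Uhrf1 windows with a match held 33 CpG each, beside a median of 7 over all windows. The share among windows of like CpG content was not counted and may differ from 2.26%. The 10 genes had 16 windows in all, and these were the 2 with a match. The other windows of Dnmt1 and Uhrf1, at other starts, held none of these letters. A match describes the sequence and is not a measured binding site.

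Dnmt3b is a de novo methyltransferase (gene ID 13436) on chromosome 2 from 153649411 to 153687730. It had 6.02 and 8.39 RPKM in B7-H4-null cells, against 4.88 and 4.54 RPKM in wild-type cells. Both B7-H4-null libraries lay above both wild-type libraries, and the means were 1.53-fold apart. Its log2 difference was 0.51 ± 0.267 (SE, limma adjusted p = 0.503), within 0.30 to 0.72 when single libraries were left out. Reads numbered 245 and 392 in B7-H4-null cells, against 214 and 195 in wild-type cells, the fewest of any tested gene of the 10.

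Dnmt3a, the other de novo enzyme (gene ID 13435), lies on chromosome 12 from 3801559 to 3914443. It had 8.20 and 7.87 RPKM in B7-H4-null cells, against 8.01 and 5.82 RPKM in wild-type cells. Wild type replicate 2 was the low library, and the other 3 lay close together. This gave a log2 difference of 0.20 ± 0.262 (SE, limma adjusted p = 0.787), which was 0.0034 without that library. The Dnmt3a and Dnmt3b levels summed to 14.2 and 16.3 RPKM in B7-H4-null cells, against 12.9 and 10.4 RPKM in wild-type cells. Dnmt3b made up 42.3% and 51.6% of this sum in B7-H4-null cells, against 37.8% and 43.8% in wild-type cells, which overlap.

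Per length, transcripts of the maintenance enzyme outnumbered those of both de novo enzymes together in every library. The ratio of Dnmt1 to the sum of Dnmt3a and Dnmt3b was 3.16 and 3.55 in B7-H4-null cells, against 5.42 and 4.78 in wild-type cells, without overlap. The sum in this ratio was chosen after its values were seen, and the share of Dnmt3b and the ratio of Uhrf1 to Dnmt1 overlapped. Single genes do not overlap in 44% of all tested cases, and the share for ratios was not counted. Nothing particular to this ratio can therefore be read from its separation. A ratio within a library does not depend on its total. With 2 libraries against 2, an exact permutation test cannot go below a two-sided p of 0.333, so none was run on ratios or sums.

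Tet3 (gene ID 194388) lies on chromosome 6 from 83362373 to 83457208. It had 5.55 and 8.78 RPKM in B7-H4-null cells, against 10.9 and 13.4 RPKM in wild-type cells. Both B7-H4-null libraries lay below both wild-type libraries, and the mean was 1.69-fold lower. This was the largest log2 difference of the 9 tested genes, −0.71 ± 0.294 (SE, limma adjusted p = 0.403), and leaving out single libraries gave −0.997 to −0.418.

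Tet2, the Tet gene most often mutated in human myeloid leukemia (gene ID 214133), lies on chromosome 3 from 133463677 to 133545136. It had 8.15 and 5.93 RPKM in B7-H4-null cells, against 10.3 and 8.11 RPKM in wild-type cells. B7-H4-null replicate 1 and wild type replicate 2 were nearly level, so the groups overlapped. On the log2 scale it differed by −0.35 ± 0.275 (SE, limma adjusted p = 0.646).

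Tet1, known from embryonic stem cells and germ cells (gene ID 52463), lies on chromosome 10 from 62804570 to 62887469. It had 0.136 and 0.0985 RPKM in B7-H4-null cells, against 0.035 and 0.0643 RPKM in wild-type cells. These values rest on 18 and 15 reads in B7-H4-null cells, against 5 and 9 in wild-type cells. Scaled to depth, the summed reads had a ratio of 2.34, B7-H4-null over wild type, with an exact 95% binomial interval of 1.22 to 4.73 that covers counting error only and takes each recovered read as 1 count. The groups did not overlap, but at under 1 RPKM the gene was outside the test.

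The summed Tet level differed less within a genotype than Tet2 or Tet3 did. Their sum was 13.8 and 14.8 RPKM in B7-H4-null cells, against 21.2 and 21.6 RPKM in wild-type cells, a mean 1.49-fold lower. After median-ratio scaling the sums were 14.9 and 14.7 in B7-H4-null cells, against 20.6 and 20.5 in wild-type cells. Within each genotype the library with more Tet2 had less Tet3, and Tet2 made up 58.9% and 40.0% of the sum in B7-H4-null cells, against 48.7% and 37.6% in wild-type cells. The share of Tet1 was below 1% in every library. The sum was looked at after the single genes were known, and it carries no test.

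Idh1, the cytosolic isocitrate dehydrogenase (gene ID 15926), lies on chromosome 1 from 65158616 to 65186479. It had 18.4 and 25.8 RPKM in B7-H4-null cells, against 31.4 and 40.4 RPKM in wild-type cells. The groups did not overlap, and the mean was 1.62-fold lower in B7-H4-null cells. The log2 difference was −0.68 ± 0.283 (SE), with a 95% interval of −1.36 to −0.01, and did not pass over all genes (limma adjusted p = 0.402). Leaving out single libraries gave −0.92 to −0.45.

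Idh2, the mitochondrial enzyme (gene ID 269951), lies on chromosome 7 from 80094845 to 80118608. It had 92.3 and 123.6 RPKM in B7-H4-null cells, against 83.5 and 61.5 RPKM in wild-type cells. Here both B7-H4-null libraries were the higher ones, and the means were 1.49-fold apart. Its difference was 0.57 ± 0.29 on the log2 scale (SE, limma adjusted p = 0.491), from 0.35 to 0.79 with single libraries left out.

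The values of Idh1 and Idh2 thus lay on opposite sides, though neither passed the test. The ratio of Idh2 to Idh1 was 5.01 and 4.79 in B7-H4-null cells, against 2.66 and 1.52 in wild-type cells. The B7-H4-null values lay close to each other. That they lay above both wild-type values follows from the separate values of Idh1 and Idh2 and is no further result. Summed, the genes had 110.7 and 149.4 RPKM in B7-H4-null cells, against 114.9 and 102.0 RPKM in wild-type cells, which overlap.

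**Figure D4:**
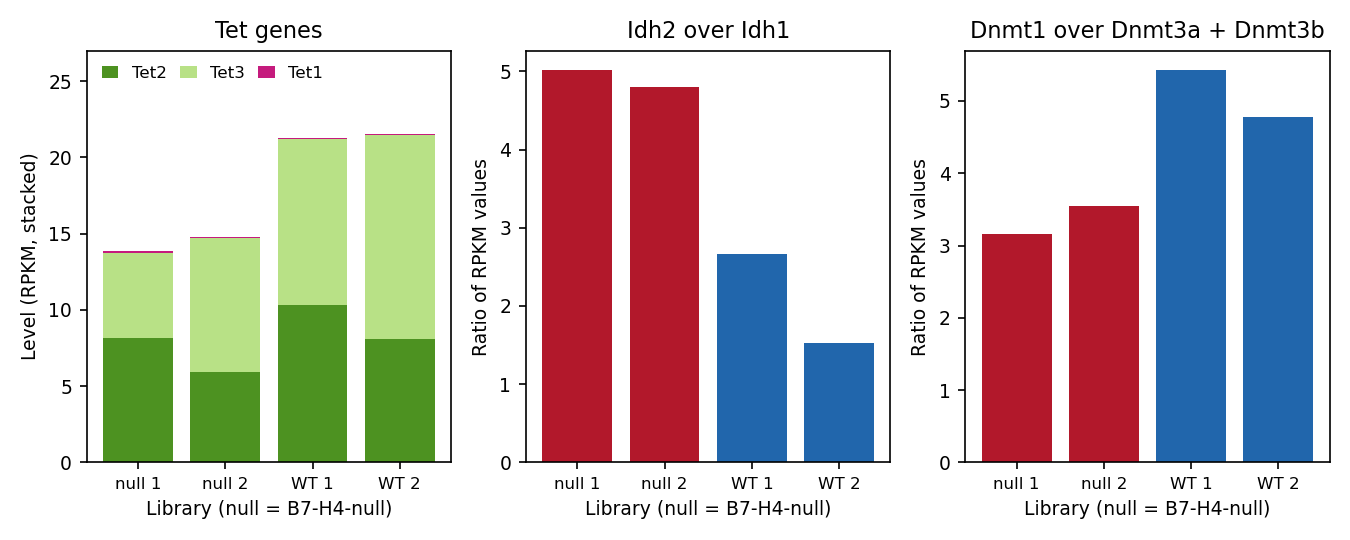
Left, stacked RPKM of the Tet genes in each library; middle, ratio of Idh2 to Idh1 RPKM; right, ratio of Dnmt1 to the summed RPKM of Dnmt3a and Dnmt3b, all axes from 0. The Tet sums are 13.8 and 14.8 RPKM in B7-H4-null libraries and 21.2 and 21.6 RPKM in wild-type libraries. Neither ratio overlaps between genotypes, which for Idh2 to Idh1 follows from the values of the single genes. Of all tested genes taken singly, 44% do not overlap either.

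Asxl1 (gene ID 228790) lies on chromosome 2 from 153345830 to 153404007. It had 30.2 and 25.5 RPKM in B7-H4-null cells, against 43.0 and 31.2 RPKM in wild-type cells. The closest libraries of the genotypes were about 1 RPKM apart, and they overlapped after median-ratio scaling, at 32.5 and 25.3 in B7-H4-null cells, against 41.7 and 29.7 in wild-type cells. Asxl1 had a log2 difference of −0.39 ± 0.272 (SE, limma adjusted p = 0.609), and −0.17 without wild type replicate 1.

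No marker gene of another cell type or maturation stage passed limma or voom, and their levels are given here beside those of the regulators. For all 15 neutrophil markers, genes of late granulocyte maturation, both B7-H4-null libraries had the lower values (28% of all tested genes), and for 14 of 15 after median-ratio scaling (22.2% of all tested genes). An unadjusted p under 0.05 in the lower direction was reached by 14 of them (7.2% of all tested genes). Their summed level was 8653 and 12712 RPKM in B7-H4-null cells, against 32019 and 24732 RPKM in wild-type cells. The summed progenitor markers had 552.8 and 443.8 RPKM in B7-H4-null cells, against 432.7 and 297.3 RPKM in wild-type cells. Without Flt3, a cytokine receptor gene, that sum was 453.5 and 341 RPKM in B7-H4-null cells, against 423.8 and 274.4 RPKM in wild-type cells, which overlap. Of the 8 single progenitor markers, 4 did not overlap in the higher direction (16% of all tested genes) and 1, Hoxa9, in the lower. The 4 were Flt3, Cd34, Gata2 and Sox4, each with an unadjusted limma p under 0.05 (5.05% of all tested genes). Cd34 had 73.2 and 70.1 RPKM in B7-H4-null cells, against 27.7 and 42.7 RPKM in wild-type cells. Hoxa9, a homeobox gene of progenitors, had 43.5 and 45.7 RPKM in B7-H4-null cells, against 60.7 and 58.4 RPKM in wild-type cells. The summed monocyte markers had 411 and 357 RPKM in B7-H4-null cells, against 168 and 216 RPKM in wild-type cells. Primary granule genes, which mark an earlier stage, summed to 7403 and 11894 RPKM in B7-H4-null cells, against 8280 and 9158 RPKM in wild-type cells. These sums overlap, but of the 6 genes 3 did not overlap in the higher direction (16% of all tested genes) and 1 in the lower (28%). Mpo, 1 of the 3, had 2153 and 3388 RPKM in B7-H4-null cells, against 1194 and 980 RPKM in wild-type cells. Elane, the lower gene, had 1302 and 2749 RPKM in B7-H4-null cells, against 2810 and 3339 RPKM in wild-type cells. The sums of mast cell and basophil markers were 109 and 50.3 RPKM in B7-H4-null cells, against 31.04 and 28.7 RPKM in wild-type cells. They were carried by Cpa3 and Mcpt8, with Fcer1a at 0 in all libraries. Ms4a2 and Prss34 were lower in both B7-H4-null libraries, at under 1 RPKM in every library. B cell markers summed to 121.6 and 132 RPKM in B7-H4-null cells, against 57.7 and 56.4 RPKM in wild-type cells, carried by Ighm and Cd79b. In bulk RNA, fewer cells of a type and less RNA per cell cannot be told apart. The part of these marker levels in the values of Idh1, Idh2, Tet3 and Dnmt3b was not tested.

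RNA levels in the list of methyl-CpG readers, which also holds Trim28 and Setdb1, were mostly lower in B7-H4-null cells. Of the 11 listed genes 10 were tested, and 8 lay below 0 (58.5% of all tested genes lay below). The 2 above were Mbd3 and Trim28. The median log2 difference was −0.52, beside −0.09 over all tested genes. The libraries of 7 did not overlap in the lower direction (28% of all tested genes), also after median-ratio scaling (22.2% of all tested genes). One of the 7, Zbtb4, passed the filter through the wild-type libraries alone. With limma 0 passed, with voom 0, and 2 had an unadjusted p under 0.05, both lower (7.2% of all tested genes). Zbtb38, a zinc finger protein that binds methylated CpG, had 5.29 and 4.34 RPKM in B7-H4-null cells, against 12.4 and 14.2 RPKM in wild-type cells (log2 difference −1.30 ± 0.251 (SE), limma adjusted p = 0.16). Zbtb33, also known as Kaiso, had 3.19 and 3.66 RPKM in B7-H4-null cells, against 6.26 and 7.29 RPKM in wild-type cells (limma adjusted p = 0.322). Mbd2, which links methylated DNA to the NuRD complex, had 60.7 and 86.2 RPKM in B7-H4-null cells, against 94.0 and 144.6 RPKM in wild-type cells (limma adjusted p = 0.462). Both groups of Trim28, the corepressor of zinc finger proteins, were also apart, in the higher direction, with 171 and 188 RPKM in B7-H4-null cells, against 144.4 and 144.4 RPKM in wild-type cells.

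Partners of demethylation and repair went both ways, with 8 of 14 tested genes above 0 (41.5% of all tested genes) and 6 below. Their median was 0.37, and it was 0.01 with no filter on low values. With limma 0 passed, with voom 0, and 5 had an unadjusted p under 0.05 (12.3% of all tested genes). Of these, 3 were higher (5.05% of all tested genes) and 2 lower (7.2%). Apobec3, a cytidine deaminase that restricts retroviruses, had 45.5 and 59.2 RPKM in B7-H4-null cells, against 18.3 and 27.2 RPKM in wild-type cells (limma adjusted p = 0.254). Ogt, the glycosyltransferase that binds Tet2 and Tet3, had 16.6 and 13.9 RPKM in B7-H4-null cells, against 27.5 and 21.9 RPKM in wild-type cells (limma adjusted p = 0.381). One of the 3 higher genes, Cxxc5, passed the filter through the B7-H4-null libraries alone. Cxxc5, a CXXC protein related to one that is known to lower Tet2 protein, had 1.26 and 3.01 RPKM in B7-H4-null cells, against 0.304 and 0.665 RPKM in wild-type cells (limma adjusted p = 0.339). Gadd45g, a stress gene also tied to active demethylation, had 359 and 71.9 RPKM in B7-H4-null cells, against 63.7 and 30.8 RPKM in wild-type cells. In that gene B7-H4-null replicate 1 stood far above the other 3 libraries. Tdg, the glycosylase that removes the oxidised bases, had 2.31 and 4.25 RPKM in B7-H4-null cells, against 3.55 and 3.79 RPKM in wild-type cells.

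Genes that supply methyl groups or handle 2-oxoglutarate lay above 0 in 21 of 26 tested cases (41.5% of all tested genes), with a median of 0.20. With limma 0 passed, with voom 0, and 1 had an unadjusted p under 0.05, in the higher direction (5.05% of all tested genes). That gene was Mat2a, which makes the methyl donor S-adenosylmethionine, with 136 and 70.7 RPKM in B7-H4-null cells, against 65.4 and 28.6 RPKM in wild-type cells (limma adjusted p = 0.394). Shmt2, the mitochondrial serine hydroxymethyltransferase, had 79.45 and 107.6 RPKM in B7-H4-null cells, against 79.33 and 53.4 RPKM in wild-type cells. The groups of Shmt2 were separate by less than 1 RPKM. Idh3g, a subunit of the NAD-dependent isocitrate dehydrogenase, had 121 and 163 RPKM in B7-H4-null cells, against 112 and 107 RPKM in wild-type cells, the same direction as Idh2 and not as Idh1.

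The partners of Asxl1 lay below 0 in 9 of 10 tested cases (58.5% of all tested genes), with a median of −0.22. By limma 0 passed, by voom 0, and 2 had an unadjusted p under 0.05, both lower (7.2% of all tested genes). Those are Ogt and Hcfc1, which are also the 2 lower genes counted in the demethylation list. Bap1, the deubiquitinase itself, had 29.7 and 31.2 RPKM in B7-H4-null cells, against 31.6 and 33.3 RPKM in wild-type cells. Hcfc1, which binds Bap1 and Ogt, had 31.3 and 34.7 RPKM in B7-H4-null cells, against 45.1 and 57.8 RPKM in wild-type cells (limma adjusted p = 0.405). Of the 10, 6 did not overlap in the lower direction (28% of all tested genes), and 3 after median-ratio scaling (22.2%), a share near that of all genes.

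Other partners of de novo methylation lay below 0 in 7 of 10 tested cases, near the 58.5% of all tested genes, with a median of −0.28. The libraries of 6 did not overlap in the lower direction (28% of all tested genes), and of 6 after median-ratio scaling (22.2%). In the higher direction 1 did not overlap (16% of all tested genes), and 2 after that scaling (22%). By limma 0 passed, by voom 0, and 1 had an unadjusted p under 0.05, in the lower direction (7.2% of all tested genes). That gene was Brpf1, a subunit of histone acetyltransferase complexes, with 45.6 and 47.6 RPKM in B7-H4-null cells, against 76.5 and 66.4 RPKM in wild-type cells (limma adjusted p = 0.39). Setd2 and Nsd1 place the histone marks that recruit Dnmt3a and Dnmt3b. Setd2 had 23.7 and 20.7 RPKM in B7-H4-null cells, against 31.9 and 31.2 RPKM in wild-type cells (limma adjusted p = 0.476). Nsd1 had 13.0 and 12.6 RPKM in B7-H4-null cells, against 15.7 and 22.1 RPKM in wild-type cells. Dnmt3l, a cofactor without methyltransferase activity known from germ cells, was read at 5.18 and 7.41 RPKM in B7-H4-null cells, against 8.26 and 8.49 RPKM in wild-type cells. That level was close to those of Dnmt3a and Dnmt3b per length.

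Germline and imprinted genes, whose silencing or single-allele expression depends on DNA methylation, were mostly near 0 in both genotypes. Of 20 germline genes 3 were tested, and 5 were at 0 reads in every library, among them Mael, Sycp1 and Rhox5. Tdrd9, a helicase of transposon silencing, passed in the higher direction (limma adjusted p = 0.0183) with 7.13 and 7.58 RPKM in B7-H4-null cells, against 0.041 and 0.0419 RPKM in wild-type cells. It had been put on the list with this rise known, so it is no sign about the list. Tdrd9 passed the filter through the B7-H4-null libraries alone, and Sycp3 through the wild-type libraries alone. Sycp3, a protein of meiotic chromosomes, had 0.473 and 0.907 RPKM in B7-H4-null cells, against 3.51 and 2.06 RPKM in wild-type cells (limma adjusted p = 0.295). Of 25 imprinted genes 6 were tested, 0 passed by limma and 0 by voom. An unadjusted p under 0.05 was reached by 2, both lower (7.2% of all tested genes). Impact, an imprinted regulator of translation, had 2.32 and 2.94 RPKM in B7-H4-null cells, against 9.82 and 10.2 RPKM in wild-type cells (log2 difference −1.61 ± 0.251 (SE), limma adjusted p = 0.13). One of these 2 genes, Igf2r, passed the filter through the wild-type libraries alone, so the tally is partly set by the filter. The median of the tested imprinted genes was −0.70, and it was −0.01 with no filter and −0.25 without B7-H4-null replicate 2.

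**Figure D5:**
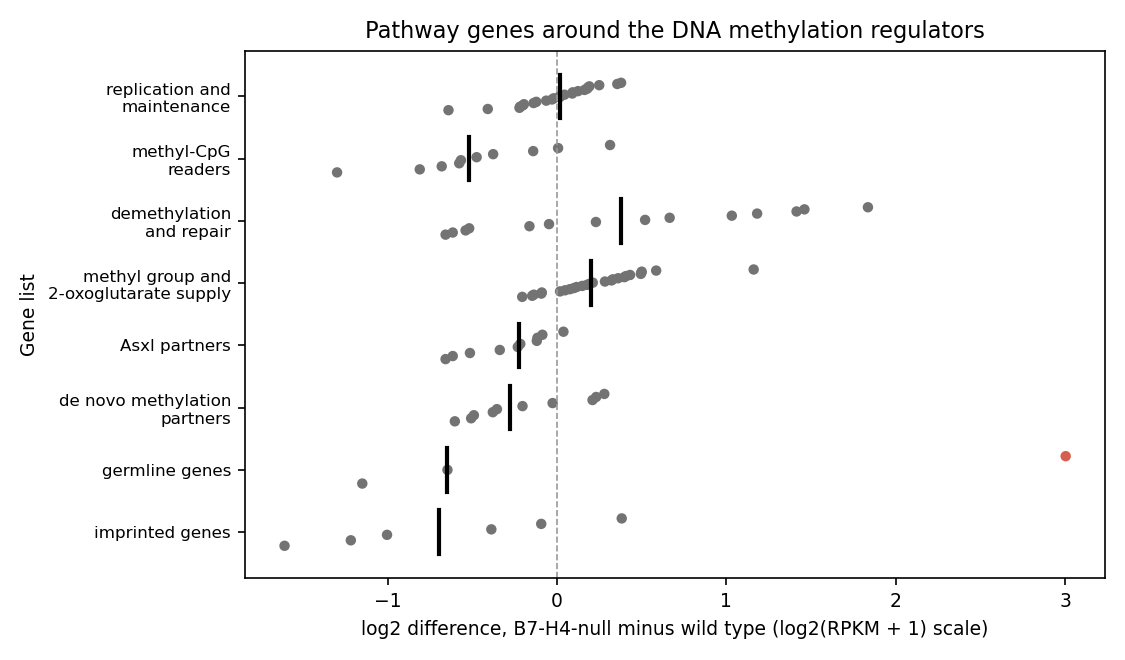
Genotype difference on the log2(RPKM + 1) scale, B7-H4-null minus wild type, for every tested gene of 8 lists, with the list's median as a black bar. The red point is Tdrd9, the 1 gene of these lists with an adjusted p under 0.05 over all genes tested, and the medians run from −0.70 for imprinted genes to 0.37 for demethylation and repair.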

How the data were processed

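The deposited table holds RPKM per Entrez gene ID and library, made by the authors. The unit was read from the values, since low values of a gene are whole multiples of a step. TopHat2 2.0.12 and GRCm38 are named in the submitters' processing notes, while the counting program and annotation are not stated. Per the labels' protocols, libraries followed TruSeq RNA v2, which does not mark strand, so sense and antisense reads at one locus are mixed. Symbols and coordinates came from RefSeq on GRCm38.p6, which matched 25275 of 27179 IDs. From the steps, totals and reads were recovered, and for all 14608 genes above 0 in every library reads came out whole to within 0.001. Recovered reads are the smallest whole numbers that fit a gene's values, so they can be too low by a factor common to all libraries. For genes with few recovered reads, reads and length were multiplied to bring the length nearest to the exons of the GENCODE annotation. This changed the reads of 2238 genes. A recovered read may stand for a fragment.

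The 12107 genes with at least 1 RPKM in 2 or more libraries were tested with limma 3.58.1 (R 4.3.3) on log2(RPKM + 1) with a mean-variance trend and Benjamini-Hochberg adjustment at 0.05, a scale that understates changes of low genes. Alternatives were a pseudocount of 0.1, no filter, a filter at 5 RPKM, median-ratio scaling, quantile normalization, no trend, a replicate block, voom on recovered reads, and each library left out. The members and lists were chosen with earlier results of these data known. All 10 members are named. Of each list, genes are named from the 4 with the smallest p, with the exceptions given here. Zbtb4 and Setdb1 were outside these 4. Mael, Sycp1, Rhox5, Pax5, Fcer1a, Ms4a2 and Prss34 were not tested and have no p. Mcm2, Mcm3, Rrm2, Hoxa9, Flt3, Trim28, Mbd3, Tdg, Idh3g, Bap1, Cd79b, Ighm and the summed levels were chosen after their values were seen. The same holds for Hells, Cdca7, Cdca7l, Lig1, Ccne1, Rrm1 and Tyms. The list entry Lsh has no current symbol and was not used.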

Additional observations from a re-analysis of the deposited data

How the results depend on the processing

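None of the 9 tested regulators passed under any of the 12 alternatives, where the lowest adjusted p was 0.188 (limma), for Idh1 in the fit with the replicate block. Directions held except for Dnmt1 and Uhrf1. With single libraries left out, Dnmt1 ran from −0.45 to 0.039, turning positive without wild type replicate 1, and Uhrf1 from −0.38 to 0.26, positive without wild type replicate 1 (0.24) or B7-H4-null replicate 1 (0.26). Median-ratio scaling gave Uhrf1 0.043.

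Over all genes, 5 passed higher and 7 lower. Testing all 20517 genes without a low-value filter left 0 and 0 (limma), while 799 (higher) and 1088 (lower) had an unadjusted p under 0.05. The replicate block gave 12 higher and 9 lower. Same-numbered libraries share only a number in the labels, and their deviations from the group means correlated at 0.247 across genes. Leaving out single libraries gave 0 to 36 genes higher and 0 to 20 lower. Without B7-H4-null replicate 1 or 2 it was 0 and 0, with 489 and 448 in the first case and 619 and 857 in the second at an unadjusted p under 0.05; without wild type replicate 1 it was 36 and 20, and without wild type replicate 2 it was 20 and 9. The cause was not tested. The lone library left in an arm is assumed to vary like the other group. The median of the replication list turned to −0.15 without B7-H4-null replicate 2 and −0.16 without wild type replicate 2. Depth limits Tet1, at 5 to 18 reads.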

Other observations

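Asxl1 and Dnmt3b both lie on chromosome 2 of GRCm38.p6, 245.4 kb apart, and their values lay on opposite sides of 0, −0.39 for Asxl1 and 0.51 for Dnmt3b (log2 difference, limma adjusted p = 0.609 and 0.503). The promoter windows of the 10 genes were rich in CpG, the site of methylation. Of their 16 windows of 300 bases, 15 held more CpG than the median of 7 over all windows. The Tet2 window held 57, more than 99.8% of windows, and the lowest was a window of Dnmt1 at chromosome 9, 20959839 to 20960138, with 2. These are counts in the reference sequence, and methylation was not measured in these samples.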
